A study of Arabidopsis thaliana with 12 samples.

Results

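The transcripts of 4 partners in plant immune signalling were followed in Arabidopsis seedlings exposed to a chitin fragment: the kinase BIK1, the receptor EFR, the EDS1 partner SAG101 and the respiratory burst oxidase RBOHD. The selection rule took every probe set assigned to BIK1, EFR or SAG101 alone, which gave 1 each, and added 1 probe set by its identifier, so that the members were 4 of 22746 probe sets on the array. That rule names the added probe set as RBOHD. The gene table used here has no row for it, so in what follows the name RBOHD rests on the rule alone. The other probe sets were 267624_at for BIK1 (AT2G39660), 246600_at for SAG101 (AT5G14930) and 246082_at for EFR (AT5G20480). Each of the 4 exceeded the intensity floor of 16 on at least 1 array and was tested.

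The samples came from whole seedlings, 14 days old, in 4 groups of 3 arrays. The genotypes were wild type (WT) and a double mutant of the ethylene response factors ERF5 and ERF6 (erf5/6), whose alleles the labels do not name. Each genotype received either water or 1 µM chitooctaose, a soluble chain of N-acetylglucosamine units derived from chitin, for 30 min. All groups were grown in liquid medium with glucose under constant light. The labels call the arrays of a group biological replicates and do not say how many seedlings each holds. In RNA from whole seedlings, a change in the number of cells that carry a transcript and a change in its amount per cell cannot be told apart.

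Plant cells detect microbial molecules with receptors at their surface. EFR is such a receptor kinase and binds a part of the bacterial elongation factor Tu, whereas chitin is bound by the LysM proteins CERK1 and LYK5. BIK1 is a cytoplasmic kinase that associates with several of these receptors and, once activated, phosphorylates RBOHD. RBOHD is an NADPH oxidase of the plasma membrane that produces the early burst of reactive oxygen species. SAG101 acts further inside the cell: it pairs with EDS1 and relays signals of intracellular TIR-type immune receptors, and it was first described in leaf senescence.

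As to the arrays as a set, correlations within a group lay between 0.984 and 0.994, and no pair of arrays held identical values. Principal component 1, with 64.9% of the variance, separated treated from water arrays. On component 2, with 7.42%, array 2 of chitooctaose-treated wild type and array 1 of water-treated wild type lay farthest from the rest. Seedling tissue was checked with green tissue and root markers, of which 2 of 8 and 1 of 7 had a probe set of 1 gene. LHCB4.1, a light-harvesting protein gene, lay between 5014 and 5581 on the 12 arrays, the Rubisco activase gene RCA between 5891 and 6456, and the root beta-glucosidase gene PYK10 between 3545 and 4287. None of these 3 was called in any of the 5 comparisons (limma). The gene table names no probe set for either mutated gene, so the mutant label was not checked against its targets.

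The first question was which of the 4 transcripts responded to chitooctaose within 30 min. Those of RBOHD, BIK1 and SAG101 rose in both genotypes, by 2.00-fold to 3.51-fold, and EFR did not pass the test in either. With limma over 18680 probe sets, 3 of the 4 members were called higher in wild type, where 6.06% of all probe sets were, and the same 3 in the mutant, where 5.95% were. None of the 4 was called lower, a direction called for 4.08% of probe sets in wild type and 2.66% in the mutant. The members were chosen with earlier results of these data known, so their counts are a description. Values are quantile-normalized intensities on a linear scale, and log2 changes were taken after intensities below 16 had been set to 16. A call is an adjusted p under 0.05 over all tested probe sets.

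The oxidase is the step that makes the reactive oxygen, and the RBOHD probe set rose the most of the 4. In wild type it read 389, 365 and 342 on the water arrays and 1388, 1282 and 1180 on the chitooctaose arrays. Every treated array stood far above every water array, so the groups did not overlap. How many of all probe sets had groups without overlap was not counted, so for each member this is a description. The change was 1.81 ± 0.13 in log2 units (SE, 3 arrays against 3), or 3.51-fold with a 95% confidence interval of 2.87 to 4.29 (limma adjusted p = 2.33e-06). In the mutant it read 465, 512 and 343 with water and 1320, 1278 and 1341 with chitooctaose. These groups did not overlap either, and the mutant water arrays were the more scattered, with a coefficient of variation of 19.9% against 6.39% for wild-type water and 2.44% for the treated mutant. The mutant change was 1.598 ± 0.132, or 3.03-fold with an interval of 2.48 to 3.70 (limma adjusted p = 6.70e-06). Without array 3 of water-treated mutant, the lowest of its group, it was 1.43.

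BIK1, the kinase that acts between receptors and oxidase, roughly doubled its signal. Its wild-type water arrays read 268, 279 and 215, and the chitooctaose arrays 447, 634 and 508. The highest treated array was array 2, which also stood apart on component 2, and all 3 treated arrays exceeded all water arrays. The rise was 1.05 ± 0.14 on the log2 scale, 2.08-fold with an interval of 1.68 to 2.57 (3 arrays against 3, limma adjusted p = 0.00035), and 0.92 without that array. In the mutant the water arrays read 257, 235 and 231 and the treated arrays 672, 557 and 611. The gap between the groups was wider than either group's own range. The rise there was 1.35 ± 0.14, 2.54-fold with an interval of 2.06 to 3.14 (limma adjusted p = 4.49e-05).

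SAG101, the EDS1 partner, gave a dimmer signal and a rise of similar size. The wild-type water arrays read 66.8, 76.3 and 70.5, and the treated arrays 135, 187 and 114. The treated wild-type arrays differed widely among themselves, with a coefficient of variation of 26.0% against 6.73% with water, and the highest was again array 2. The groups did not overlap, and the change was 1.00 ± 0.16 on the log2 scale, 2.00-fold with an interval of 1.56 to 2.56 (3 arrays against 3, limma adjusted p = 0.00173). Without array 2 of chitooctaose-treated wild type it was 0.80 (adjusted p = 0.00185), and with array 1 of water-treated wild type left out as well it was 0.76 (adjusted p = 0.00845). In the mutant the water arrays read 67.0, 61.0 and 60.4 and the treated arrays 141, 156 and 121. Again no treated array came near the water arrays. The mutant change was 1.14 ± 0.16, 2.21-fold with an interval of 1.73 to 2.83 (limma adjusted p = 0.000589).

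**Figure D1:**
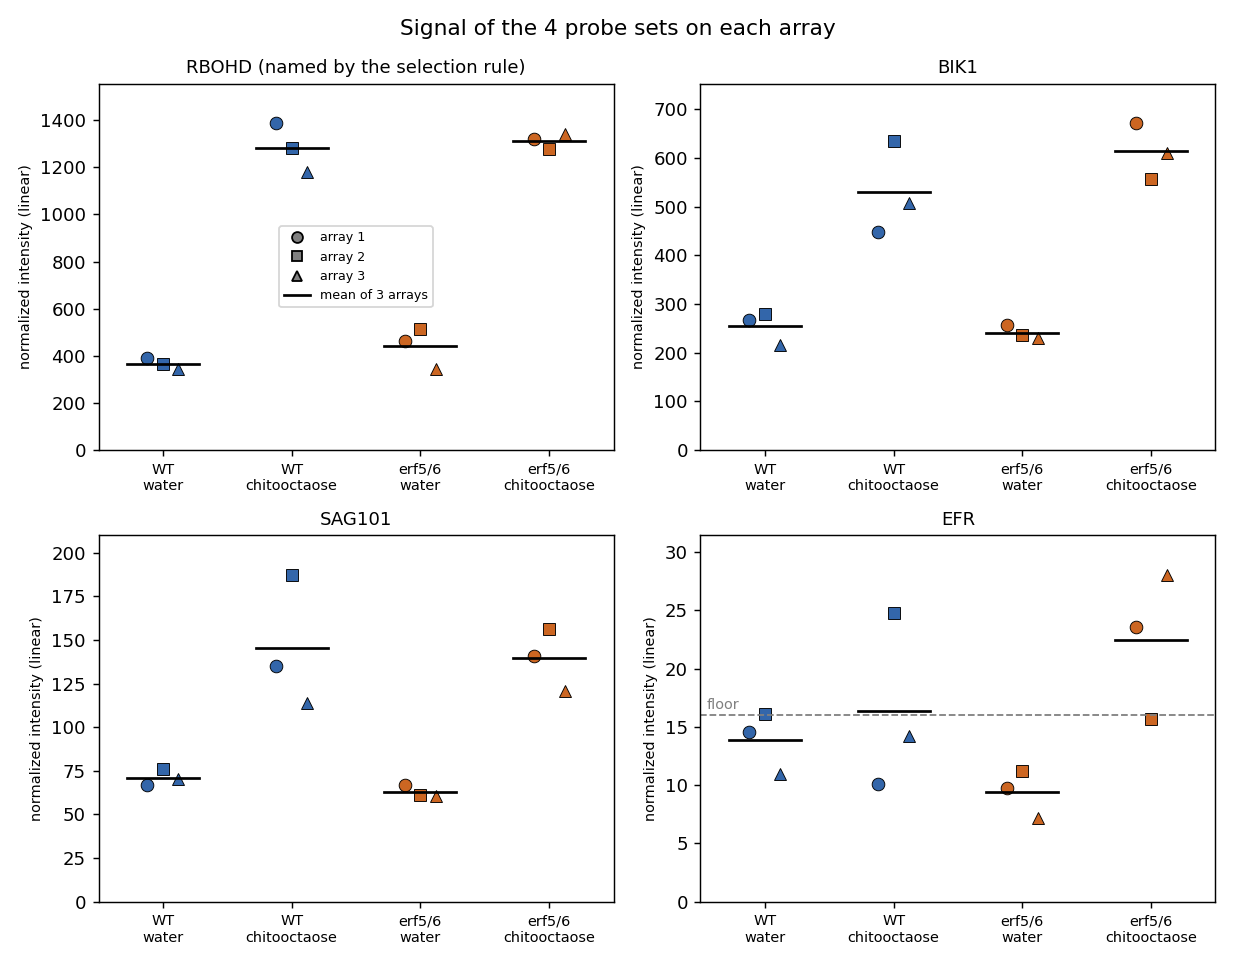
Normalized intensity (linear axes starting at 0, a separate scale in each panel) of the 4 probe sets on each of the 12 arrays. Symbols mark array numbers, colours the genotype and black lines the mean of 3 arrays; the dashed line for EFR is the floor of 16. The treated arrays lie above all water arrays of the same genotype for RBOHD, BIK1 and SAG101, and for EFR in the mutant only. EFR lies below the floor on 8 of 12 arrays.

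EFR, the receptor for a bacterial ligand, was at the edge of detection. It read 14.5, 16.1 and 10.99 on the wild-type water arrays and 10.1, 24.7 and 14.2 on the treated ones, so the groups overlapped and array 2 alone of the treated group stood above the floor. The change in wild type was 0.21 ± 0.20 on the log2 scale (limma adjusted p = 0.598), and -0.003 without that array. In the mutant the water arrays read 9.80, 11.2 and 7.16, all below the floor, and the treated arrays 23.6, 15.7 and 28.1. Every treated mutant array was above every water array before flooring, and 2 of the 3 were above the floor. With all values below the floor raised to it, 1 treated array included, the log2 change was 0.46 ± 0.20. It was not called (limma adjusted p = 0.234, unadjusted p = 0.0454) and lay between 0.28 and 0.68 with single arrays left out. The mutant water arrays were then all equal, with a log2 SD of 0, so the spread behind the SE is partly set by the floor. The floored change is a lower bound for the change in the readings. An adjusted p under the threshold was obtained for the mutant change in 3 of 21 alternative fits. These were the fits with 32 added to every intensity instead of flooring (0.0376), with array weights (0.0365) and without array 2 of treated mutant (0.0387). Some of those 21 fits left out only wild-type arrays, which could move the mutant change little. Across all 21 the adjusted p reached 0.538.

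**Figure D2:**
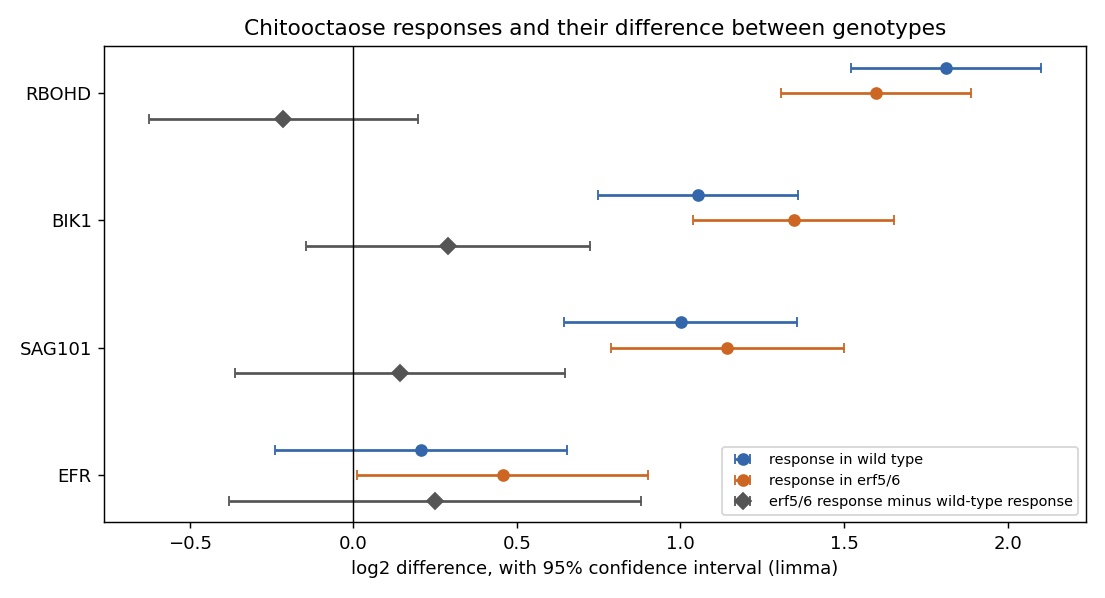
Log2 change with chitooctaose in wild type and in erf5/6, and the mutant change minus the wild-type change, for each probe set, with 95% confidence intervals from limma. The intervals of RBOHD, BIK1 and SAG101 lie above 0 in both genotypes, and all 4 intervals of the difference between genotypes include 0.

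The placement of the members among all tested transcripts was then described. In wild type the change of RBOHD ranked 334th from the highest among 18680 probe sets, that of BIK1 597th and that of SAG101 631st. In the mutant the ranks were 413, 507 and 586. EFR, below the floor on 8 of 12 arrays, ranked 2304th in wild type and 1183rd in the mutant, from values mostly raised to the floor. The median change of all tested probe sets was -0.07 in wild type and -0.09 in the mutant. The 3 called members therefore lay in the upper 3.38% of changes in each genotype, below the strongest responders, whose log2 changes exceeded 5.

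**Figure D3:**
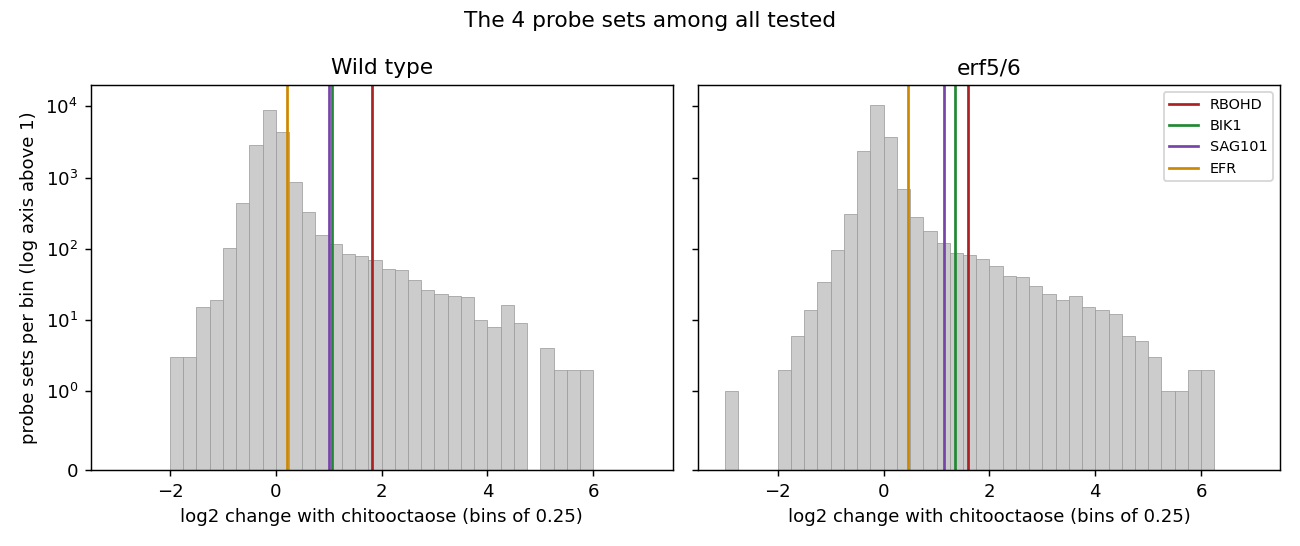
Distribution of the log2 change with chitooctaose over 18680 probe sets in each genotype (bins of 0.25; vertical axis logarithmic above 1), with vertical lines at the 4 members. In both genotypes RBOHD, BIK1 and SAG101 lie in the right-hand tail and EFR, whose values were mostly raised to the floor, closer to the main mass.

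The rises of the 3 called members were also set side by side. This comparison was chosen after their values had been seen, so it is a description and no p-value is given. Averaged over both genotypes, the log2 change of RBOHD exceeded that of BIK1 by 0.51, with 0.76 in wild type and 0.25 in the mutant. It exceeded that of SAG101 by 0.63, with 0.81 and 0.45 in the 2 genotypes. BIK1 and SAG101 were 0.13 apart. The size of a change depends on how each probe set's signal follows the amount of RNA, and these 3 probe sets were not calibrated against each other.

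The second question was whether loss of ERF5 and ERF6 altered these responses or the levels themselves. None of the 4 members was called in any of these 3 comparisons, and none had an unadjusted p under 0.05. For the difference between the responses limma called 0 of 18680 probe sets (0%), with 859 at an unadjusted p under 0.05. The mutant response minus the wild-type response of RBOHD was -0.21, with a 95% interval of -0.62 to 0.20. For BIK1 it was 0.29 (-0.14 to 0.72), for SAG101 0.14 (-0.36 to 0.65) and for EFR, from values mostly raised to the floor, 0.25 (-0.38 to 0.88), all with an adjusted p of 0.997. These intervals leave room for a mutant response of BIK1 between 0.906 and 1.65 times that of wild type, and of RBOHD between 0.649 and 1.15 times.

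Single arrays moved these differences. Without array 2 of chitooctaose-treated wild type, on which BIK1, SAG101 and EFR each had their highest wild-type reading, the difference between the responses was 0.43 for BIK1 (unadjusted p = 0.0326, adjusted p = 0.567), 0.34 for SAG101 (adjusted p = 0.645) and 0.46 for EFR (adjusted p = 0.668). Without array 3 of water-treated mutant it was -0.39 for RBOHD (unadjusted p = 0.0129, adjusted p = 0.999), and without array 2 of that group it was -0.09. With each of the 12 arrays left out in turn, the difference lay between -0.39 and -0.09 for RBOHD, 0.18 and 0.43 for BIK1, -0.02 and 0.34 for SAG101, and 0.07 and 0.48 for EFR. That of SAG101 thus changed sign when array 3 of the treated wild-type group was omitted, and no member was called in any of these fits.

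In water no member was called between the genotypes. The level of RBOHD was 440 ± 87.5 in the mutant and 365 ± 23.4 in wild type (mean ± SD, n = 3 arrays each), a log2 difference of 0.25 with an interval of -0.04 to 0.54 (limma adjusted p = 0.871). Arrays 1 and 2 of the mutant exceeded all wild-type arrays and array 3 did not; without array 3 the difference was 0.42 (adjusted p = 0.545), and without array 2 it was 0.13. BIK1 stood at 241 ± 14.1 in the mutant and 254 ± 34.1 in wild type (log2 difference -0.07, adjusted p = 0.995). SAG101 stood at 62.8 ± 3.69 and 71.2 ± 4.79, with 1 mutant array inside the wild-type range (-0.18, interval -0.54 to 0.17, adjusted p = 0.945). EFR stood at 9.40 ± 2.07 and 13.9 ± 2.62, with all mutant and 2 of 3 wild-type arrays below the floor, so no fold is given. Over all probe sets this comparison called 6, or 0.0321%.

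After chitooctaose the genotypes overlapped for all 4 members. The treated mutant and wild type had 1313 ± 32.03 and 1283 ± 104 for RBOHD (mean ± SD, n = 3 arrays each; log2 difference 0.04, limma adjusted p = 0.995). For BIK1 the values were 614 ± 57.5 and 530 ± 95.4 (0.22, interval -0.08 to 0.53, adjusted p = 0.816), and 0.36 (adjusted p = 0.343) without array 2 of treated wild type. SAG101 had 139 ± 17.9 and 145 ± 37.9 (-0.04, adjusted p = 0.999). That difference was 0.16, of the opposite sign, without array 2 of treated wild type, and -0.20 without array 3. For EFR 2 of 3 wild-type and 1 of 3 mutant arrays were below the floor, so no fold is given, and the difference was not called (adjusted p = 0.875). Over all probe sets 4 were called here, or 0.0214%. For each of RBOHD, BIK1 and SAG101, then, the 4 groups fell into a low water pair and a high chitooctaose pair, and within neither pair was a genotype difference called.

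Other genes of the same pathway were taken from 5 lists with 58 entries, of which 14 had a probe set assigned to them alone and 12 exceeded the floor somewhere; BIK1, EFR and SAG101 are among the 12. Of these 12 probe sets, 5 were called higher in wild type and 6 in the mutant, and none lower. The members BIK1 and SAG101 are among those called in both genotypes. Over all probe sets 6.06% and 5.95% were called higher and 4.08% and 2.66% lower. The lists, too, were chosen with earlier results of these data known, so the counts are a description. Receptor-like cytoplasmic kinases, the class of BIK1, accounted for most: 4 of 5 tested were called higher in each genotype, with a median log2 change of 1.05 in wild type and 1.35 in the mutant against -0.07 and -0.09 over all probe sets; BIK1 is itself the median member of the 5. AT3G09830 read 94.4 with water and 319 with chitooctaose in wild type and 89.5 and 300 in the mutant, with log2 changes of 1.76 ± 0.13 and 1.75 ± 0.13 (SE, limma adjusted p = 2.59e-06 and 2.57e-06). The difference between its responses was -0.01 (adjusted p = 0.997). AT5G47070 rose by 1.61 ± 0.21 and 1.55 ± 0.21 (adjusted p = 0.000345 and 0.000442).

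The remaining kinases showed smaller values. AT5G03320 rose by 0.57 and 0.61 on the log2 scale (adjusted p = 0.00443 and 0.00275), and its wild-type call was lost when both wild-type arrays that stood apart were left out (0.45, adjusted p = 0.0539). AT4G17660 had -0.10 and 0.05 and was not called. AT5G18610, entered in the kinase list as PBL27, a kinase of the chitin pathway, was below the floor on all 12 arrays and was not tested. The table lists no probe set for PBL1, the closest relative of BIK1.

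Of 19 receptors and co-receptors only 4 had a probe set of 1 gene, and the chitin receptor genes CERK1 and LYK5 were not among them. The gene table has no row for 8730 of the 22746 probe sets. A gene without a probe set here may therefore still be on the array. The median log2 change of the 4 was 0.13 in wild type and 0.26 in the mutant. SD1-29, a lectin-domain receptor kinase gene for a bacterial lipid signal, was called in the mutant and not in wild type. It read 109 with water and 156 with chitooctaose in the mutant (0.51 ± 0.11, limma adjusted p = 0.0119) and 132 and 146 in wild type (0.16, adjusted p = 0.443). The difference between these responses was not called (0.36, adjusted p = 0.997), and the mutant call was lost without array 1 or 2 of treated mutant (adjusted p = 0.0534 and 0.0528). FER, a malectin-domain receptor kinase gene, had 0.10 and 0.07 and AT1G27190 -0.01 and -0.02.

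Of 10 NADPH oxidase genes 3 had a probe set of 1 gene, 2 of them above the floor, and neither was called. AT1G19230 had log2 changes of 0.10 in wild type and -0.25 in the mutant (adjusted p = 0.838 and 0.545), and AT4G25090 had -0.44 and 0.14 (adjusted p = 0.315 and 0.81). Both read below 60 on every array. Among the oxidase probe sets tested, that of RBOHD, counted by its name in the selection rule, was the 1 with a called change. Of 10 entries for the EDS1 family and helper receptors only SAG101 had a probe set of 1 gene. The 9 regulators of BIK1 and RBOHD, such as CPK28 and PUB12, had none. For the difference between the responses and both genotype comparisons, 0 of the 12 were called with limma.

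**Figure D4:**
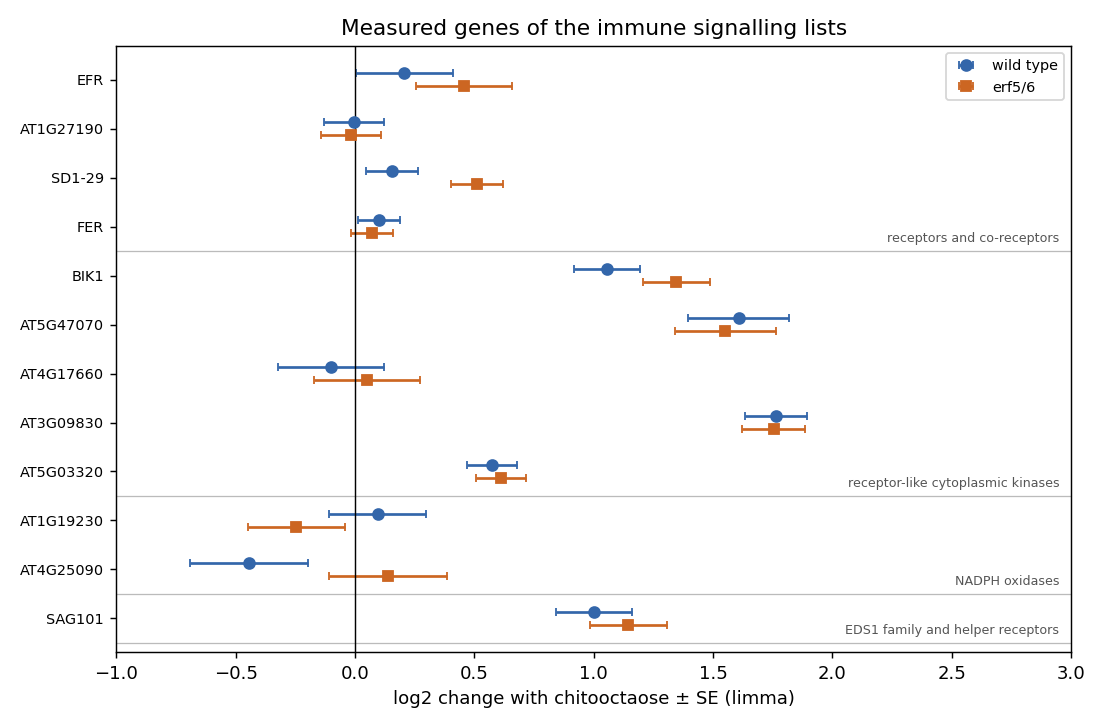
Log2 change with chitooctaose ± SE (limma) in wild type and erf5/6 for the 12 tested probe sets of the pathway lists, grouped by list; the RBOHD probe set is not plotted because the gene table does not list it. In both genotypes 4 of 5 cytoplasmic kinases and SAG101 lie near 0.5 or above. Of the receptors, FER and AT1G27190 lie near 0 in both genotypes. SD1-29 and EFR lie at 0.51 and 0.46 in the mutant and at 0.16 and 0.21 in wild type.

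Transcripts whose profile over the 12 arrays was most like that of each member were found by the root mean square difference between log2 values, each centred on its own mean. For RBOHD these were AT1G55450 (0.119), OPCL1 (0.124), AT1G68330 (0.161), AT4G39570 (0.161) and AT2G31990 (0.164), where the median over all probe sets of 1 gene was 0.927. OPCL1 encodes a ligase of jasmonate synthesis, and its log2 changes were 1.67 in wild type and 1.73 in the mutant. For BIK1 they were AT4G01090 (0.117), AT5G18150 (0.12), AT2G28400 (0.161), AT5G04390 (0.163) and AT1G16670 (0.167), against a median of 0.688.

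SAG101 had AT5G13200 (0.106), AT1G16670 (0.126), AT4G23880 (0.13), AT3G57700 (0.153) and AT3G10720 (0.157) nearest to it, against a median of 0.633. AT1G16670 was thus among the nearest 5 of both BIK1 and SAG101, and the members themselves were 0.207 apart. The profile of RBOHD was 0.34 from BIK1 and 0.411 from SAG101. For EFR the nearest were AT4G04990 (0.139), AT4G39820 (0.148), AT3G13950 (0.157), RAD9 (0.169) and SDP1 (0.172), against a median of 0.367, and 3 of these 5 were themselves at the floor on at least 4 arrays. All these transcripts share the arrays and the treatment contrast that dominates them, so the likeness is a description.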

How the data were processed

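The deposited table holds 1 linear intensity for each probe set and array; the steps by which the authors summarized and scaled it are not given in the sources used. Deposited array medians lay between 77.0 and 83.2. Intensities were quantile normalized, set to 16 where below it (24.1% of values per array) and log2 transformed. The 4066 probe sets at this floor on all arrays were not tested. Differences were tested across all remaining probe sets with limma 3.58.1 (R 4.3.3), fitting 4 group means to all 12 arrays, two-sided, with Benjamini-Hochberg adjustment within each of 5 comparisons. The procedure was tested on simulated data. Genes were named from the platform annotation, updated through the RefSeq table of TAIR10.1; 13513 probe sets had 1 gene. The 4 members were always named, pathway genes where measured, and the 5 nearest profiles per member. The members and lists were chosen with earlier results of these data known. Same-numbered arrays of different groups deviated together (r over 0.1) in 6 of 18 pairs, so the numbers were not taken as pairing. The number of arrays limits the precision: the median 95% interval had a half-width of 0.275 (log2), or 0.389 where responses were compared. No sequence is printed because no sequence table was used here.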

Additional observations from a re-analysis of the deposited data

How the results depend on the processing

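The responses of RBOHD, BIK1 and SAG101 kept their direction and their call in all 23 alternative fits in each genotype. Some of these fits left out only arrays of the other genotype, which could move a response little. Over these fits the log2 change ranged from 1.73 to 1.87 and 1.43 to 1.72 for RBOHD, from 0.92 to 1.17 and 1.24 to 1.47 for BIK1, and from 0.76 to 1.16 and 0.85 to 1.24 for SAG101 (wild type, then mutant). The highest adjusted p was 0.044, for SAG101 with only the wild-type arrays. EFR could be tested in 21 fits, since a floor of 32 or leaving out the 40% dimmest probe sets removed it. Its mutant change was called in 3 of these fits: with the offset (0.39), with array weights (0.56) and without array 2 of treated mutant. With single arrays left out it lay between 0.28 and 0.68. No alternative called a member for a genotype difference or a difference between the responses. Some of these uncalled differences changed sign with an array left out: to -0.02 for SAG101 between the responses, to 0.005 for BIK1 in water, and to 0.16 for SAG101 and -0.02 for RBOHD after chitooctaose. The labels do not say what same-numbered arrays share. With the replicate number as a block, 1823 probe sets were called in wild type and 1517 in the mutant, with no change in the members' calls.

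Counts over all probe sets moved more, mainly the falls. With all arrays 762 falls were called in wild type and 497 in the mutant. In wild type there were 1269 with array weights, 371 with only the arrays compared, 449 without both arrays that stood apart (an alternative chosen after seeing the data) and 354 to 830 with single arrays left out. In the mutant there were 921 with array weights, 302 to 595 with single arrays left out and, with the deposited values not normalized further, 254 beside 1275 rises, against 1111 rises with normalization. The difference between the responses had 1 call with a floor of 32, 1 with the offset and 0 to 1 with single arrays left out. Genotype calls after chitooctaose numbered 7 with floor-constant probe sets kept, 7 with array weights and 1 with only the arrays compared; those in water numbered 1 with only the arrays compared. The cause of these shifts was not tested.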
